A study of Mus musculus with 4 samples.

Results

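The proteasome genes are the 48 protein-coding genes of GENCODE M1 on mm9 whose symbols start with Psma, Psmb, Psmc, Psmd, Psme, Psmf or Psmg, with Psmb8 and Psmb9 left out. Members were picked by symbol from 22238 protein-coding genes, and the family itself was chosen with earlier results of these data known. Runx3 binding was read from the peaks whose centre lay within 5 kb of a transcription start site (TSS) of the gene, and a gene with such a peak is called bound. By that rule 21 of the 48 genes were bound, with 27 peaks. Symbols did not follow function in every case. Psmc3ip, a recombination factor of meiosis, is no proteasome subunit, and Psme2b-ps is an annotated copy of Psme2 that the annotation types as protein-coding.

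The proteasome degrades proteins tagged with ubiquitin. Its 20S core is a stack of rings of α and β subunits, with the catalytic sites on the β subunits inside. The 19S regulator caps the core with a ring of ATPases, which unfold substrates and feed them in, and with non-ATPase subunits, which bind and remove ubiquitin. Activators replace the 19S cap in some complexes, and dedicated chaperones assemble the rings. In dendritic cells (DC) proteasomes also make peptides for presentation on MHC class I. Runx3 is a transcription factor of the Runt family that binds the hexamer TGTGGT and, in the variant form, TGCGGT.

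Runx3 ChIP-seq was measured in CD11chiMHCII+CD4+ DC sorted from mouse spleen, as 2 Runx3 immunoprecipitates and 2 controls of fragmented whole cell extract. Every sample was pooled from approximately 15 mice, and the antibody was a polyclonal made in the authors' laboratory. The labels name no engineered allele and no treatment, and 3 samples are labelled C57BL/6 and the second control C57BL/7. Bound regions were deposited as 1 list of 15121 peaks called on the pooled samples, so no peak has a value per replicate, no spread between replicates can be given and no comparison below was tested between samples. Each peak has a score written by MACS2, in a unit that is not stated, which ran from 1.33 to 309 with a median of 12.1 and an upper quartile of 23.2. Read depth is not held in the list and was not analysed here, and a gene without a peak may still carry binding too weak to be called. No RNA was measured in these samples, and neither the markers of the sorted cells nor the expression of any proteasome gene could be read from them.

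The sequences that follow show the range of the peaks, from a distal peak with the RUNX hexamer to TSS peaks without it. They are stretches of at most 120 bases at peak centres, outside exons, read from mm9 5′ to 3′. Capitals mark TGTGGT or its complement on the other strand, ACCACA. The Psma6 distal peak, with the highest score at any proteasome gene, held both orientations within 26 bases, and the Psmd13 distal peak, at the gene whose best score came next after Psma6 and Psmd7, held no hexamer of either form. The Psmb2 stretch holds 1 hexamer and the Psmb7 stretch, from the lowest peak at any of these genes, holds none.
Psma6 distal peak, chr12:56488532-56488651, plus strand: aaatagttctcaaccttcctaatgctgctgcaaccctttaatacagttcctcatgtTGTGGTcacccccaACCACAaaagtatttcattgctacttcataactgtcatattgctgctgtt
Psmd13 distal peak, chr7:148063366-148063485, plus strand: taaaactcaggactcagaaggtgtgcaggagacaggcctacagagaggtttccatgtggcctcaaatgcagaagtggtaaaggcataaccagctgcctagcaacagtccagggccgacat
Psmb2 TSS peak, chr4:126354664-126354783, plus strand: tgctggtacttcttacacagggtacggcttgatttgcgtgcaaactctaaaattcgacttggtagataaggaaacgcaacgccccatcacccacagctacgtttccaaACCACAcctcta
Psmb7 TSS peak, chr2:38499296-38499360, plus strand: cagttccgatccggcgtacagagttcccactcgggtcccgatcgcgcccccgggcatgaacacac

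TGTGGT occurred in 7 of the 27 peaks. The copy nearest to the peak centre is shown for each of them with 10 bases on either side, on the strand that reads TGTGGT, and the hexamer is in capitals.
Psma6 distal peak, chr12:56488578-56488603, plus strand: ttcctcatgtTGTGGTcacccccaac
Psmd7, chr8:110112184-110112209, minus strand: tgctgctcagTGTGGTggatcatttc
Psmc2, chr5:21290933-21290958, plus strand: ccgcactaccTGTGGTctgagcctcg
Psmb2, chr4:126354762-126354787, minus strand: ggtctagaggTGTGGTttggaaacgt
Psmd4, chr3:94847033-94847058, minus strand: gaagttaaaaTGTGGTtaacgatgct
Psmd1, chr1:87956068-87956093, minus strand: aagcctgtttTGTGGTagagccgctc
Psma5, chr3:108060103-108060128, plus strand: gctgtggcggTGTGGTtgattagggt

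TGCGGT, with C at the third base, was the form found in the other 9 peaks with a hexamer. The pieces at the 3 highest of these peaks are shown in the same way. Over the 16 peaks with either form, the nearest copy lay within 50 bp of the peak centre in 9. This was not counted over all peaks. In the 200 bp around the centre, either form was found in 11 of the 27 peaks (40.7%). Over all peaks within 5 kb of a protein-coding TSS that share was 44.1%.
Psma6 TSS peak, chr12:56499684-56499709, minus strand: gcgcccggccTGCGGTccgcgggctt
Psmb1 distal peak, chr17:15636947-15636972, plus strand: gctaggtttcTGCGGTcgcgtcattt
Psma4, chr9:54798479-54798504, minus strand: cggctttggcTGCGGTctgtattaga

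The share of bound proteasome genes was higher than that of all protein-coding genes and lower than that of genes with CpG-rich promoters. Its interval held both of these shares. Of the 48 genes, 21 (43.8%, Wilson 95% interval 30.7 to 57.7) had a peak within 5 kb, beside 31.2% of all protein-coding genes and 49.5% of those with a CpG-rich promoter. A promoter was called CpG-rich where the 1000 bp around the main TSS had at least 50% GC and at least 0.6 of the CpG expected from base composition. Within 1 kb 19 genes (39.6%) had a peak, beside 25% of all genes and 43.1% of CpG-rich ones. CpG-rich promoters were held by 38 of the 48 genes (79.2%), beside 45.2% of all protein-coding genes. Of these 38, 20 were bound (52.6%, interval 37.3 to 67.5). Of the 10 others only Psme2 was, beside 16% of all genes without a CpG-rich promoter. The intervals cover counting error only, and neighbouring genes and promoters of like composition are not independent. Whether promoter composition accounts for the difference from all genes was not tested beyond these shares.

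**Figure D1:**
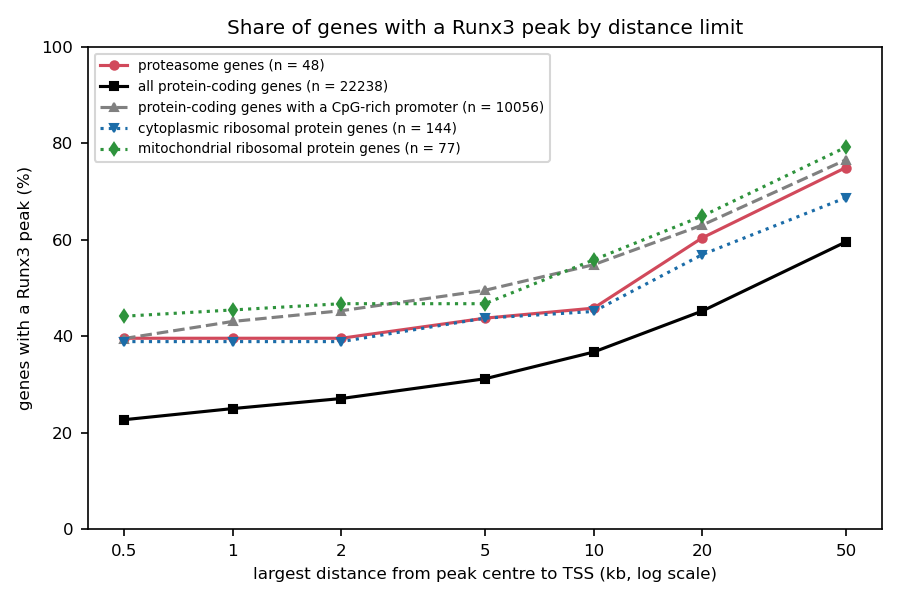
The share of genes with a Runx3 peak (y axis, percent) is plotted against the largest distance allowed from peak centre to TSS (x axis, kb, log scale) for proteasome genes, all protein-coding genes, genes with a CpG-rich promoter, and cytoplasmic and mitochondrial ribosomal protein genes. The line of the proteasome genes lies above that of all genes at every limit drawn, with 39.6% at 0.5 kb and 75% at 50 kb, and from 1 kb on below that of the CpG-rich genes, which reached 76.6% at 50 kb.

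The count of bound proteasome genes was 19 at limits of 0.5, 1 and 2 kb, 21 at 5 kb and 22 at 10 kb, and rose to 29 at 20 kb and 36 at 50 kb. At 50 kb the share was 75%, beside 59.6% of all genes and 76.6% of CpG-rich genes. The ribosomal protein genes, other housekeeping families, gave similar shares within 5 kb, with 63 of 144 cytoplasmic ribosomal protein genes (43.8%) and 36 of 77 mitochondrial ribosomal protein genes (46.8%). Among genes with a CpG-rich promoter the shares were 70.1% of 77 cytoplasmic and 50% of 64 mitochondrial ribosomal protein genes, against 52.6% of the proteasome genes. The symbols of the cytoplasmic family also match annotated copies, which enter its total.

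Peaks at proteasome genes were of ordinary height. The best peak of the 21 bound genes had a median score of 11.2 (interval from order statistics 6.57 to 23.4), beside a median of 14.2 over the 6934 bound protein-coding genes. Scores at or above the list's upper quartile were reached by the best peak of 7 genes (14.6%), namely Psma6, Psmd7, Psmd13, Psmb1, Psmc2, Psma4 and Psmb2. The share was 9.27% of all protein-coding genes and 14.9% of CpG-rich ones. Over bound genes alone it was 7 of 21, beside 2061 of 6934. At 5 genes (10.4%), Psma6, Psmb1, Psmc2, Psmd13 and Psme2, there were at least 2 peaks, beside 7.84% of all genes and 12.0% of CpG-rich ones. Scores spread from 1.74 at Psmb7, which ranks 15102 in the list, to 71.6 at Psma6, which ranks 452.

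**Figure D2:**
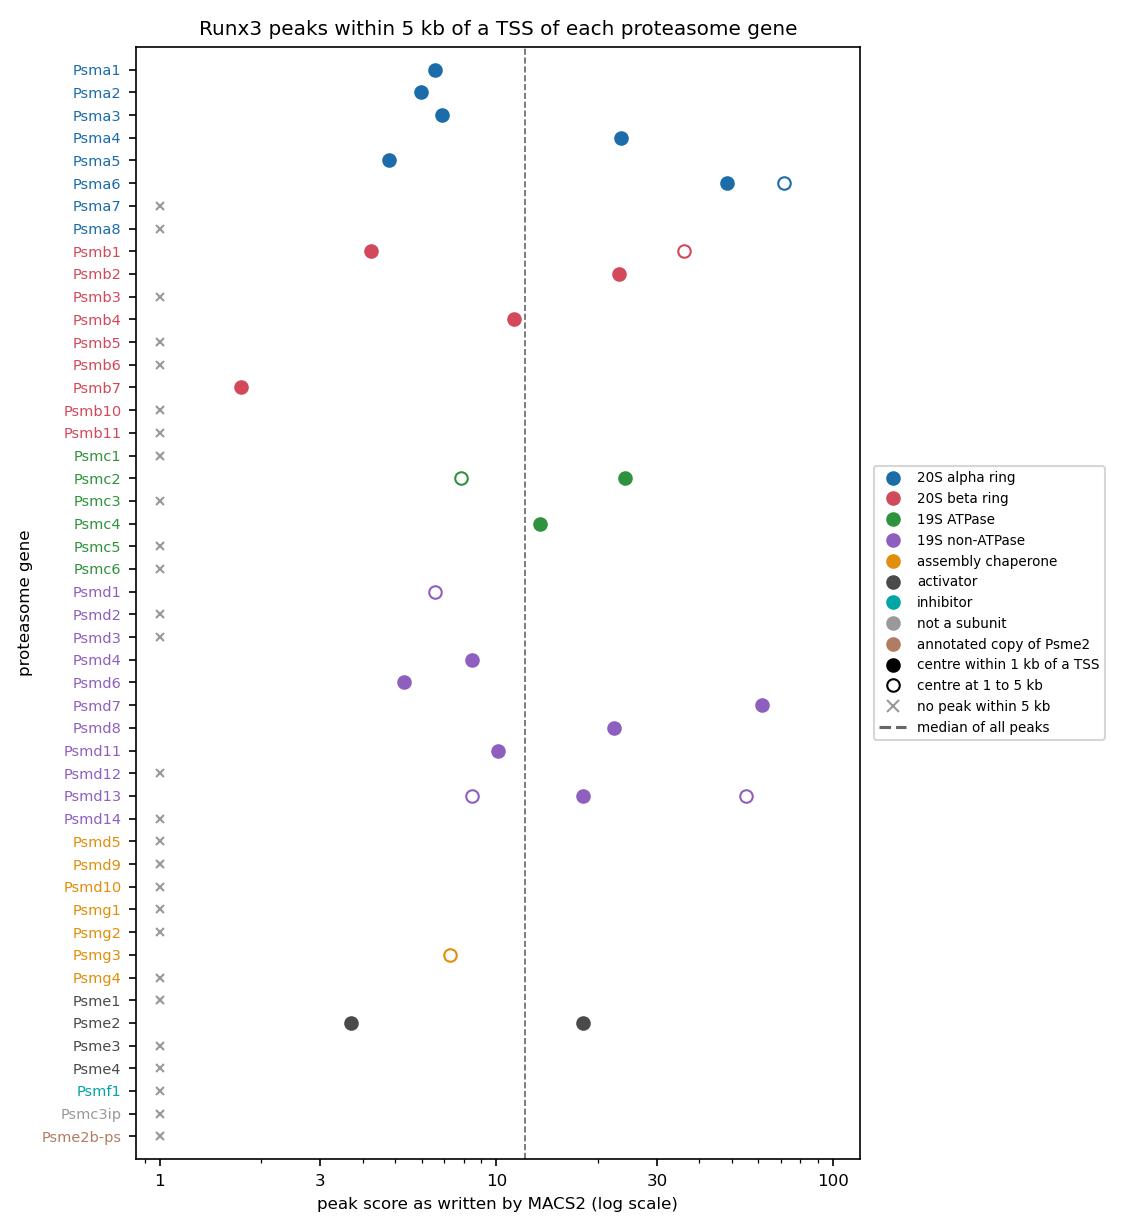
Each row is 1 of the 48 proteasome genes, coloured by role, and each circle is a peak within 5 kb of its TSS placed by its score (x axis, log scale, no error bars because the call was pooled). Filled circles are centred within 1 kb and open circles at 1 to 5 kb of the TSS, crosses at the left mark genes without a peak and carry no score, and the dashed line is the median of 12.1 over all peaks. Psma6, Psmd7 and Psmd13 hold the highest circles, and 27 genes have a cross.

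The α subunits, which form the outer rings and the gate of the core, were bound at 6 of 8 genes, each within 1 kb of a TSS. The Wilson interval of this share, 40.9 to 92.9%, held the 49.5% of CpG-rich genes and lay above the 31.2% of all genes. CpG-rich promoters were held by 7 of the 8 genes. The best peak of Psma6 had a score of 71.6 (97.0th percentile of the list) and lay at chr12:56488308-56488876. Its centre was 3383 bp downstream of the TSS of a longer transcript without a CCDS entry, in intron 1 of that transcript, and 11170 bp upstream of the TSS of the CCDS transcript. A further peak, at chr12:56499436-56499966 with a score of 48.3, covered the CCDS TSS, 61 bp upstream at its centre. These were the highest α-ring peaks, and Psma4 followed with a score of 23.4, centred 143 bp upstream of its TSS at chr9:54798246-54798662.

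The remaining bound α genes had low peaks close to the TSS. Psma3 had a score of 6.88 at chr12:72075403-72075868, 23 bp upstream, and Psma1 a score of 6.57 at chr7:121419509-121419766, 5 bp upstream. Psma2 had a score of 5.96, with its peak at chr13:14705407-14705676 centred 20 bp downstream of the TSS and 237 bp from the TSS of Mrpl32 on the other strand. Psma5 had a score of 4.79 at chr3:108059968-108060228, 254 bp downstream of its TSS and 195 bp from that of the non-coding gene 1700010K24Rik. All of these fell below the median of the list. Psma7, an α subunit of the standard core, had its nearest peak at 12550 bp (score 16.5). Psma8, the testis counterpart of Psma7, had its nearest peak at 26614 bp (score 6.88).

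The β subunits, which include the catalytic ones, were bound at 4 of 9 genes. The Wilson interval of this share, 18.9 to 73.3%, held both the 31.2% of all genes and the 49.5% of CpG-rich ones. CpG-rich promoters were held by 6 of the 9 genes. Of the subunits of the standard core without catalytic activity, Psmb1, Psmb2 and Psmb4 were bound and Psmb3 was not, with its nearest peak at 16428 bp. The best peak of Psmb1 had a score of 36.1 at chr17:15636698-15637178, 1698 bp upstream of the Psmb1 TSS and 14 bp from the TSS of Tbp, the TATA-binding protein. At the Psmb1 TSS itself the peak, chr17:15635132-15635593, had a score of 4.23. Psmb2 had a score of 23.2 at chr4:126354520-126354929, 150 bp upstream. Psmb4 had a score of 11.2 at chr3:94690671-94691071, 12 bp downstream in the 5′ UTR of exon 1.

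Among the catalytic β genes only Psmb7, which encodes the trypsin-like subunit, had a peak, and it was the lowest at any proteasome gene. It lay at chr2:38499225-38499488 with a score of 1.74 (0.126th percentile), 53 bp downstream of a TSS in intron 1. Psmb5, the chymotrypsin-like subunit, had its nearest peak at 14597 bp with a score of 4.09, and the same peak was nearest to Psmb11, the thymic subunit, at 21912 bp. Psmb6, the caspase-like subunit, was 35387 bp from a peak with a score of 137. Psmb10, the inducible counterpart of Psmb7 in the immunoproteasome, had its nearest peak at 54324 bp.

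The 6 ATPases of the 19S base were bound at 2 genes. The Wilson interval of this share, 9.68 to 70.0%, held both the 31.2% of all genes and the 49.5% of CpG-rich ones. Psmc2 had a score of 24.1 at chr5:21290815-21291319, 34 bp upstream of its TSS and 2 bp from the TSS of Dnajc2, which starts on the other strand. A lower peak of Psmc2, with a score of 7.84, was centred in coding exon 2 at chr5:21292489-21292821. Psmc4 had a score of 13.4 at chr7:28834985-28835345, 45 bp upstream. Psmc3, Psmc5, Psmc1 and Psmc6 had none, with the nearest peak at 11201, 16831, 49550 and 110331 bp. All 6 of these genes had CpG-rich promoters.

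The non-ATPase subunits of the 19S regulator with a Psmd symbol were bound at 7 of 11 genes. The Wilson interval of this share, 35.4 to 84.8%, held the 49.5% of CpG-rich genes and lay above the 31.2% of all genes. All 11 genes had CpG-rich promoters. Psmd7, the partner of the deubiquitinase Psmd14, had the second highest best peak of all 48 genes, with a score of 61.3 (95.7th percentile). It lay at chr8:110111954-110112503, covered the TSS and was centred 154 bp downstream in coding exon 1. Psmd14 itself was not bound, with its nearest peak at 118461 bp. Psmd13, a lid subunit, had 3 peaks, and each was nearer to a TSS of Sirt3, a mitochondrial deacetylase gene. Their scores were 55.0 at chr7:148063192-148063661 in intron 3 of Sirt3 and 4441 bp upstream of Psmd13, 8.49 at chr7:148065281-148065607 in intron 1 of Sirt3 and 2423 bp upstream, and 18.1 at chr7:148067982-148068457, 94 bp upstream of a Psmd13 TSS and 11 bp from a Sirt3 TSS. Which gene a peak near such neighbours belongs to, also one inside Sirt3, cannot be told from its position.

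Of the other lid genes, Psmd8 had a score of 22.3 at chr7:29965284-29965869, 116 bp downstream in coding exon 1. Psmd11 had a score of 10.1 at chr11:80241901-80242276, 29 bp upstream, and Psmd6 a score of 5.30 at chr14:14953290-14953624, 10 bp upstream. Psmd4, a ubiquitin receptor, had a score of 8.49 in the widest of the 27 peaks, 721 bp at chr3:94846422-94847142, centred 246 bp upstream. Psmd1, a scaffold of the base, was the bound gene nearest to the limit, with a score of 6.57 at chr1:87955881-87956146, 4949 bp upstream. Psmd12, a lid subunit, was the gene nearest to it from outside, at 6221 bp with a score of 23.2. Psmd2, the other scaffold of the base, and Psmd3, a lid subunit, had their nearest peaks at 58234 and 85315 bp.

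Of the 7 assembly chaperones 1 was bound and of the 4 activators 1, and the Wilson 95% intervals of 2.57 to 51.3% and 4.56 to 69.9% both held the 31.2% of all protein-coding genes. Psmg3 was the chaperone gene with a peak, with a score of 7.26 at chr5:140306608-140306894, 3954 bp upstream. Its partner chaperones of the core Psmg1, Psmg2 and Psmg4 had their nearest peaks at 58270, 34087 and 84894 bp, and the chaperones of the 19S base Psmd5, Psmd9 and Psmd10 at 35978, 77014 and 413464 bp. With 0 of 7 chaperone genes bound within 1 kb the Wilson 95% interval reached 35.4%. Of the activators, Psme2, an interferon-inducible subunit of the PA28 cap, had a peak with a score of 18.1 at chr14:56210304-56210724, 564 bp upstream and 31 bp from the TSS of Rnf31, and a peak with a score of 3.69 at chr14:56209742-56210004, 51 bp downstream. Psme1, its partner, was 10288 bp from the latter, its nearest peak. Psme3, the nuclear activator, and Psme4, a large single-chain activator, had their nearest peaks at 89690 and 546897 bp. The inhibitor Psmf1 was 133550 bp, Psmc3ip 11803 bp and Psme2b-ps 45071 bp from a peak.

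Over the 27 unbound genes the nearest peak lay at a median of 45071 bp, and that distance was under 10 kb at 1 gene, over 50 kb at 12 and in between at 14. Median promoter GC was 56.6% at unbound and 56.3% at bound genes. The observed over expected CpG had a median of 0.672 at unbound and 0.781 at bound genes. Both ranges overlapped, from 0.158 to 1.02 and from 0.446 to 0.911. Over all 48 genes the nearest peak had a median distance of 11502 bp, beside 27706.5 bp over all genes and 5279.5 bp over CpG-rich genes.

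Of the 27 peaks at proteasome genes 20 lay within 1 kb of a TSS, a share close to that of the 5486 among all 7617 peaks within 5 kb of a protein-coding TSS. The median distance of those 20 was 57 bp, beside 107 bp over the 5486. The TSS was covered by 18 of the 27, and this share was not counted over all peaks. Peaks within 1 kb had a median score of 10.7 (5.96 to 22.3), beside 12.7 over the 5486. Their median width was 413.5 bp, beside 430 bp. For 20 of the 27 peaks the nearest annotated TSS was that of a proteasome gene, with a median score of 8.17 and a range of 1.74 to 71.6. For the other 7 it was that of Sirt3 (3 peaks), Tbp, Dnajc2, Rnf31 or 1700010K24Rik, with a median score of 18.1 and a range of 4.79 to 55.0. The ranges of both groups overlapped over most of their length. How often a peak near a gene outside the family lay nearest to the TSS of some other gene was not counted. A TSS on the other strand within 1 kb was found at 12 of the 48 genes (25%), beside 15.2% of all genes and 26.4% of CpG-rich ones. Of those 12, 6 were bound within 1 kb. This was a share close to the 1634 of 3387 among all genes with such a TSS and the 1410 of 2651 among CpG-rich ones.

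**Figure D3:**
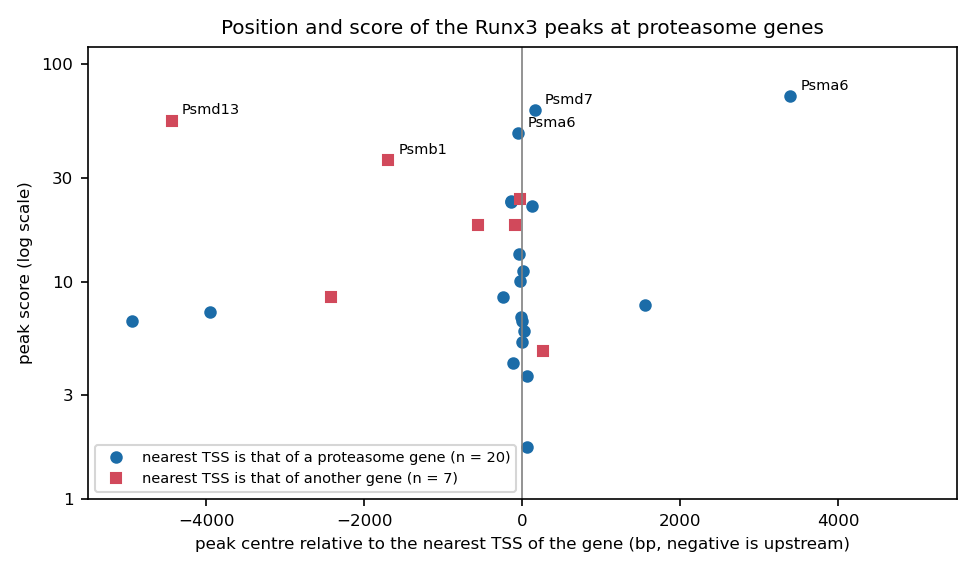
Each point is 1 of the 27 peaks, placed by the distance of its centre from the nearest TSS of the proteasome gene (x axis, bp, negative is upstream) and its score (y axis, log scale). Circles are the 20 peaks nearest to a proteasome gene and squares the 7 nearest to another gene, and the column of points around 0 holds the 20 peaks within 1 kb, which reach 61.3 at Psmd7.

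The RUNX hexamer TGTGGT had a lower share in these peaks than in peaks near genes in general, within an interval that held the general share. It was found in 7 of the 27 peaks (25.9%, Wilson 95% interval 13.2 to 44.7), beside 41.9% of all peaks within 5 kb of a protein-coding TSS. Within 1 kb it was found in 5 of 20 (25%, 11.2 to 46.9), beside 33.6%, so that the interval held the share of all such peaks. Either form of the hexamer was found in 16 of 27 (59.3%), beside 60%. The peaks with TGTGGT, shown above, had a median score of 23.2 (4.79 to 71.6) and the 20 without it a median of 9.30 (1.74 to 55.0), with ranges that overlapped widely. The hexamer TGACGT, to which the DC factor zDC binds, was found in 2 of 27 peaks (7.41%), beside 14.6%.

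Motifs of promoter-binding factors were searched in the 20 peaks within 1 kb, on both strands, and set beside the 5486 peaks within 1 kb of any protein-coding TSS. The YY1 motif AAGATGG was found in 8 of 20 (40%, interval 21.9 to 61.3), beside 11.3%. In 5 of these 8 peaks, at Psmb4, Psmd11, Psmd4, Psma2 and Psmb7, the ATG of the motif was the annotated start codon, and at Psmd7, Psmd8 and Psmc4 it was not. How often this held at other peaks with the motif was not counted. The ETS core CCGGAA was found in 12 of 20 (60%, 38.7 to 78.1), beside 37.6%. CCAAT was found in 9 of 20 (45%), beside 46.3%, and the antioxidant response element core TGACNNNGC in 7 of 20 (35%), beside 22.0%. The nuclear respiratory factor motif CGCATGCG was found in none of the 20, beside 4.03%. A match is a match of letters and not a measured site, and 8 motifs were searched.

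**Figure D4:**
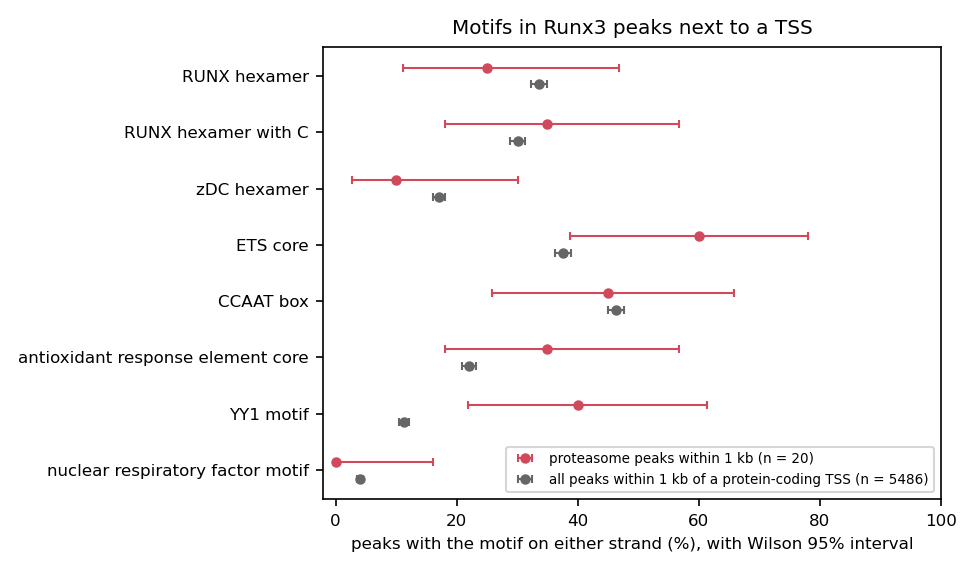
For each of the 8 motifs, the share of peaks with a match on either strand (x axis, percent) is shown with its Wilson 95% interval for the 20 peaks within 1 kb of a proteasome gene TSS and for the 5486 peaks within 1 kb of any protein-coding TSS. The YY1 motif (40% beside 11.3%) and the ETS core (60% beside 37.6%) lie furthest to the right of all peaks, and the other intervals of the proteasome peaks are wide.

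The same motifs were counted in the promoters, from 250 bases before to 50 after the main TSS, whether bound or not. The ETS core was found in 23 of 48 proteasome promoters (47.9%, 34.5 to 61.7), beside 18% of all promoters and 29.5% of CpG-rich ones. It was found at 47.4% of the 19 genes with a peak within 1 kb and at 48.3% of the 29 without. The YY1 motif was found in 9 of 48 (18.8%), beside 6.72% and 7.06%, with 6 of the 9 at genes with a peak. TGTGGT was found in 8 of 48 (16.7%), beside 15.2% and 9.78%. It was found at 10.5% of the 19 genes with a peak within 1 kb (interval 2.94 to 31.4) and at 20.7% of the 29 without (9.85 to 38.4). Over all CpG-rich promoters the order was the other way, with 12.4% where there was a peak within 1 kb and 7.77% where there was none. CCAAT was found in 18 (37.5%), beside 37.7% of all promoters.

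The Psma6 distal peak contained repeated sequence. Of the 120 bases shown above, bases 31 to 60 occurred 103 times in the assembled chromosomes and in 3 peaks of the list. The 26 bases that hold both hexamers, bases 51 to 76, occurred 1 time. These pieces were chosen after the sequence had been seen, and the part of the repeat in the score was not tested.

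Other genes of the pathway were bound in a share whose interval overlapped that of the proteasome genes. From a list of 29 genes 28 matched the annotation, and 25 of the 28 (89.3%) had CpG-rich promoters. Within 5 kb 16 of the 28 (57.1%, interval 39.1 to 73.5) had a peak, beside 31.2% of all protein-coding genes and 49.5% of CpG-rich ones. Within 1 kb 14 had a peak (50%, 32.6 to 67.4), beside 25% and 43.1%. Both intervals held the share of CpG-rich genes. Ubb, a polyubiquitin gene, had a best score of 27.6, and Rps27a, which encodes ubiquitin fused to a ribosomal protein, 3.17. The ubiquitin-activating enzymes Uba1 and Uba6 had no peak. Of 9 genes without a Psm symbol whose proteins join or act on the proteasome, 5 were bound. They were led by the deubiquitinase gene Uchl5 (49.4) and Zfand5 (38.1), with Shfm1 (23.4), Akirin2 (8.49) and Txnl1 (4.23). Adrm1, Usp14, Ube3c and AI314180 were not bound. Among shuttle and extraction factors, Ufd1l (39.0), Rad23b (30.4), Vcp (21.5) and Ddi2 (4.23) were bound, and Nploc4, Ubqln1, Ubqln2 and Ubqln4 were not. Pomp, the maturation factor of the core, had no peak. The 3 regulators of proteasome genes each had a peak within 1 kb, and their best scores within 5 kb were low. The best score was 5.36 at Nfe2l1, which encodes the factor that raises proteasome genes when the proteasome is inhibited, and 4.20 at Nfe2l2. Ngly1, whose enzyme processes the Nfe2l1 protein, had a best score of 10. That peak was centred 1399 bp downstream of the TSS, and so was not the Ngly1 peak within 1 kb.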

How the data were processed

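Runx3 immunoprecipitates and whole cell extract of sorted splenic CD4+ DC were sequenced by the authors. The submitters' processing notes name CASAVA 1.8, Bowtie, MACS2 and mm9. The authors deposited 1 BED of peaks from a pooled call, which gives the bounds of each peak and the score of MACS2, whose unit is not given in the sources used here. BED starts were counted from 1. Peaks were placed by their centre and genes by the TSS of every transcript of GENCODE M1, merged by symbol and chromosome. The main TSS was that of a CCDS transcript, then of a coding one, then of the longest. Sequences were read from NCBIM37, the mm9 assembly. Intervals on shares are Wilson 95% and those on medians come from order statistics. No test was run, because a pooled call has no replicates. By rule all 48 genes were named, with fuller values for the 8 highest best peaks, the peaks nearest to and farthest from a TSS, genes with several peaks and unbound genes. Sequence was shown for the 5 highest best peaks, up to 120 bases at the centre outside exons or a piece around the hexamer. The remaining sequences were chosen after their values were seen. Members, gene lists and motifs were chosen with earlier results of these data known. The counting was tested on simulated data. Python 3.11.15, numpy 2.4.6, pandas 2.3.3, scipy 1.17.1, pyfaidx 0.9.0.4 and matplotlib 3.10.9 were used. The tables of gene expression and other experiments of the study were not analysed here. Results for some genes of the pathway list are not reported here.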

Additional observations from a re-analysis of the deposited data

How the results depend on the processing

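The count of bound proteasome genes stayed between 19 and 22 at limits of 1 and 10 kb and under the alternatives of TSS set, peak joining and gene list that were run, and rose to 29 and 36 at the wider limits of 20 and 50 kb. Psmd1 and Psmg3 were lost at 1 kb, Psmd1 with the TSS of coding or of CCDS transcripts, Psma5 and Psmd13 when each peak counted for its nearest TSS alone, and Psmd12 was gained at 10 kb. The score cut-off changed more. At or above the median score 10 of the 48 genes and 18% of all protein-coding genes were bound, with a median best score of 23.7. Of the 12 peaks left, 4 held TGTGGT (33.3%) and 7 were nearest to a proteasome gene (58.3%). At or above the upper quartile 7 genes and 9.27% of all protein-coding genes were bound, with a median best score of 36.1. Of the 8 peaks left, 4 held TGTGGT (50%) and 5 were nearest to a proteasome gene (62.5%). In the main setting these were 7 of 27 (25.9%) and 20 of 27 (74.1%). The share of all genes was 25% at 1 kb, 36.7% at 10 kb, 30.1% with coding transcripts, 28.6% with 1 TSS per gene, 26.1% with the nearest TSS alone, 29.2% with CCDS transcripts and 49.5% of CpG-rich genes. With C or T at the third base of the hexamer 16 peaks had a match. The CCDS set and the omission of Psmc3ip together with Psme2b-ps were chosen after seeing the data. Over all alternatives 31 of 49 values stayed within the limits set and 18 moved. Leaving out a replicate was not possible, and no paired analysis was possible because peaks were called on the pooled samples. Depth limits how weak a region can be called, and reads per sample were not analysed here.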
